A study of Mus musculus with 4 samples.

Results

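The cells described here are venous endothelial cells, the lining cells of small and larger veins, taken from mouse salivary tissue labelled as submandibular gland. They were chosen by their UMI counts, where a UMI (unique molecular identifier) stands for 1 captured RNA molecule. A retained cell was taken when Pecam1, Cdh5, Egfl7 and Flt1, genes of all endothelial cells, summed to at least 3 UMIs, and when Selp and Ackr1 summed to at least 2 UMIs. Selp encodes P-selectin, on which leukocytes roll, and Ackr1 encodes the atypical chemokine receptor of venules. Cells were left out with any UMI of Ptprc or Pdgfra (leukocytes and fibroblasts), of Gja5, Sema3g or Stmn2 (arterial genes in this tissue), or of Prox1 or Mmrn1 (lymphatic endothelium), and with 6 or more UMIs of Ifit1, Ifit2, Ifit3, Ifit3b and Oasl1 (interferon-induced genes). The rule gave 220 of 36685 retained cells. Because these counts chose the cells, levels of the genes in the rule are a description and carry no test.

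All 4 single-cell libraries came from female C57BL6/J mice and were depleted of EpCAM-positive epithelial cells and Ter119-positive red blood cells with magnetic beads and then of dead cells. In 2 deligated libraries (age 14 weeks) a metal clip had closed the main ducts for 14 days and had been taken off 5 days before harvest. The other 2 libraries are homeostatic, from mice of 12 weeks without surgery, so that age and surgery cannot be told apart. The protocols name sublingual beside submandibular glands while the tissue label names the submandibular gland alone, and they do not say how many mice gave a library. The p-value of a gene rests on a spread between libraries that is estimated partly over all genes, and that spread may be technical. A small p-value can therefore go with libraries of a group that lie far apart.

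Veins collect blood from the capillary bed, and the endothelium of the smallest of them, the postcapillary venules, is the main place where leukocytes leave the blood. It stores P-selectin and von Willebrand factor in granules that are released within minutes of a stimulus, and it displays E-selectin, ICAM-1 and VCAM-1 for slower recruitment. Venous identity depends on the transcription factor COUP-TFII (Nr2f2), whereas capillary endothelium carries genes for lipid handling and gas exchange and high levels of the VEGF receptor Kdr.

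The members numbered 78 and 47 in deligated libraries 1 and 2 and 51 and 44 in homeostatic libraries 1 and 2, of 4521, 8386, 11713 and 12065 retained cells, which held 34737772, 52927714, 51353785 and 50034327 UMIs in all. In the values below the 2 deligated libraries stand first and the 2 homeostatic libraries second, each with replicate 1 before replicate 2. Member cells held more UMIs than other endothelial cells of the same library, and most in deligated library 1: the median was 8556.5 and 5616 against 5166 and 4847 UMIs in members, and 5244 and 4198 against 3427 and 3387.5 UMIs in comparison cells. Comparison cells are the 10143 cells that meet every part of the rule but have no UMI of Selp or Ackr1, and 1054 arterial cells (at least 2 UMIs of Gja5, Sema3g and Stmn2, none of Selp or Ackr1) serve as a further reference. The median share of mitochondrial UMIs in members was 4.30% and 3.55% against 3.11% and 3.42%. Pairs of libraries shared 14 to 54 cell barcodes among all their barcodes before the cell filter and 0 among members, and 6 of the 220 members scored as doublets.

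The label was checked with Vwf (chr6:125546774-125686679 on GRCm38), the gene of von Willebrand factor, which was not part of the rule. Its level in members, in CPM (UMIs per 1000000 UMIs summed over the cells of a library), was 519.8 and 389 CPM against 432 and 597 CPM. Comparison cells had 2.57 and 5.20 CPM against 3.57 and 4.81 CPM, arterial cells 37.4 and 29.98 CPM against 28.7 and 30.4 CPM, and leukocytes, which should lack the gene, 0.479 and 0.239 CPM against 0.679 and 1.51 CPM. Every library therefore had over 10 times more Vwf in members than in arterial cells, and the groups overlapped. Thinned to 2000 UMIs a cell, the share of members with a Vwf UMI was 51.3% and 32.6% against 41.2% and 47.7%, and it was 69.2% and 48.9% against 62.7% and 68.2% without thinning. In leukocytes thinned to the same depth it was at most 0.204%.

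Some other genes, taken from the venous gene list and with Aqp1 from the junction list, were read beside Vwf, as levels without a test. Nr2f2 stood at 305 and 233 CPM against 368 and 376 CPM, and at 53.3 and 61.7 CPM against 59.7 and 54.8 CPM in comparison cells. Lrg1, a secreted glycoprotein of venous endothelium, stood at 431 and 586 CPM against 468 and 539 CPM. Slco2a1, the prostaglandin transporter, had 569 and 583 CPM against 503 and 647 CPM in members and 102 and 77.8 CPM against 67.4 and 61.3 CPM in comparison cells. Plvap, the diaphragm protein of fenestrae and caveolae, did not separate the sets: its level was 3207 and 3315 CPM against 2510.2 and 2409 CPM in members and 3289 and 3262 CPM against 2524 and 2521 CPM in comparison cells. Il6st, the shared receptor chain of the interleukin-6 family, was at 969.7 and 910.4 CPM against 1010.5 and 1081 CPM in members and lower in the comparison cells of all 4 libraries, at 221 and 231 CPM against 233 and 225 CPM. Aqp1, a water channel, had 1116 and 1422 CPM against 1446 and 1086 CPM in members and 137 and 209 CPM against 135 and 136 CPM in comparison cells. All but Plvap stood at over 3 times the level of comparison cells in each library.

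The 15 genes with the highest ratio of members to comparison cells in the library where that ratio was lowest were Vwf, Adgrg6, Sele, Bmp4, Vcam1, Anpep, Pcdh7, Masp1, Lbp, Ctnnal1, Myof, Fgl2, Gm5127, Chp2 and Thsd7a. Sele, the E-selectin gene, lies at chr1:164048234-164057677 near Selp (chr1:164115264-164150026) and had 99.1 and 74.5 CPM against 107 and 87.7 CPM in members, beside 1.17 and 0.662 CPM against 0.715 and 2.02 CPM in comparison cells. Vcam1, the ligand of the leukocyte integrin VLA-4, had 97.9 and 188 CPM against 243 and 213 CPM, with groups that did not overlap but no call (log2 fold change -0.78 ± 0.29, edgeR adjusted p = 0.106). Bmp4, a secreted growth factor of the bone morphogenetic protein family, had 63.5 and 77.8 CPM against 85.7 and 91.9 CPM. Lbp, the binding protein of bacterial lipopolysaccharide, had 102 and 175 CPM against 154 and 229.6 CPM, and Masp1, a protease of the lectin pathway of complement, 67.4 and 51.8 CPM against 42.8 and 58.5 CPM. Anpep, a membrane peptidase, had 58.5 and 48.6 CPM against 53.6 and 58.5 CPM. Fgl2 is also a leukocyte gene here, at 195 and 254 CPM against 120.5 and 115 CPM in leukocytes and 117 and 162 CPM against 121 and 184 CPM in members. Of these 15 genes, 3 passed the test between deligated and homeostatic members, all lower, where 11.2% of all 5055 tested genes passed, 8.78% lower, and 39.3% of those with over 100 kb of intron were lower. Pcdh7, a protocadherin, had 107 and 81.0 CPM against 407 and 814 CPM (log2 fold change -2.66 ± 0.32, edgeR adjusted p = 4.93e-05), Thsd7a 142 and 107 CPM against 528 and 656 CPM (log2 fold change -2.22 ± 0.25, edgeR adjusted p = 2.77e-05) and the unnamed gene model Gm5127 5.08 and 13.0 CPM against 111 and 209 CPM (log2 fold change -4.36 ± 0.48, edgeR adjusted p = 2.37e-05). Pcdh7 and Thsd7a hold 405 and 424 kb of intron, and with the dependence of fold change on intron length removed, as described below, they had -0.98 and -0.49 (edgeR adjusted p = 0.0844 and 0.287) and Gm5127 -3.71 (0.000235).

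**Figure D1:**
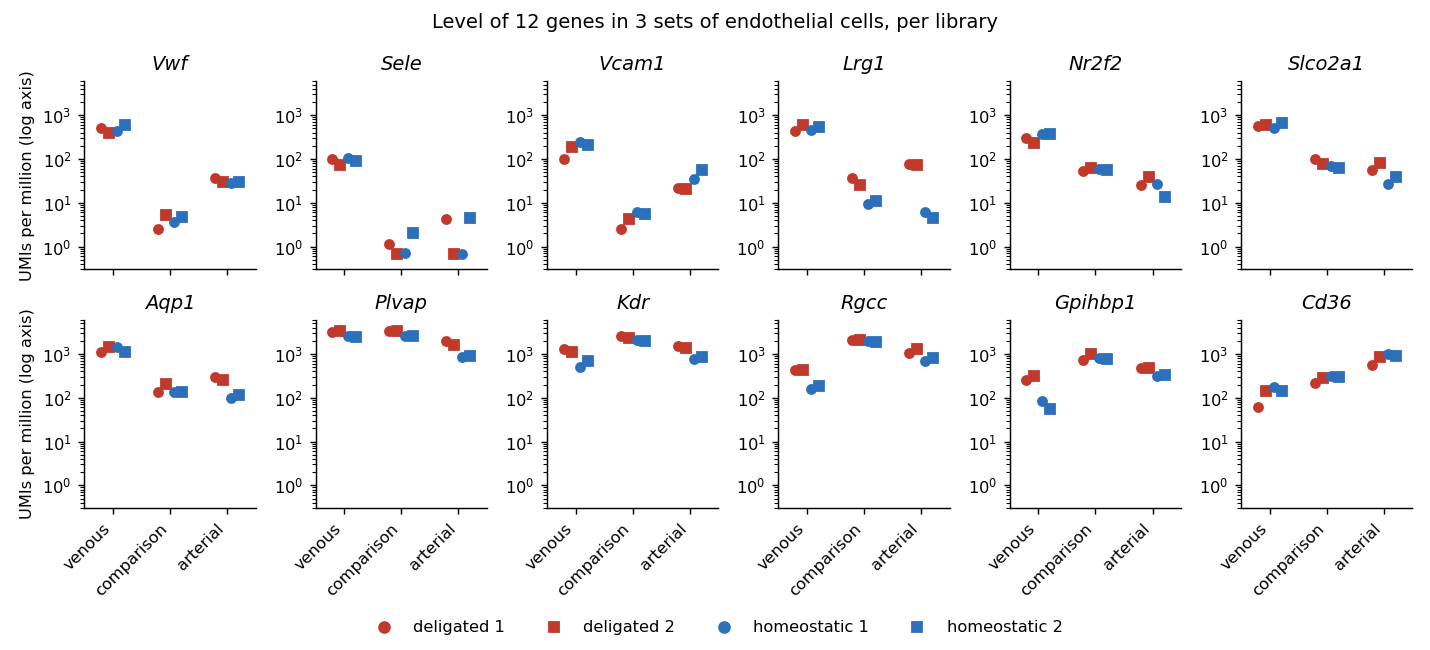
Level of 12 genes (CPM, log axis) in venous, comparison and arterial cells, 1 point per library, red for deligated and blue for homeostatic, circles for replicate 1 and squares for replicate 2. Vwf lies between 389 and 597 CPM in venous cells and at or below 5.20 CPM in comparison cells, Plvap is alike in both, and Kdr, Rgcc and Gpihbp1 are lower in venous than in comparison cells.

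Of the capillary genes, some were far below comparison cells in members and others not. Rgcc, a cell cycle regulator that marks capillaries, stood at 423 and 421 CPM against 157 and 188 CPM in members and at 2025 and 2069.8 CPM against 1986 and 1899 CPM in comparison cells. Gpihbp1, which carries lipoprotein lipase to the capillary surface, stood at 257 and 311 CPM against 85.7 and 54.3 CPM and 740.4 and 982 CPM against 798 and 778 CPM, and Car4, a carbonic anhydrase of capillaries, at 31.8 and 9.72 CPM against 14.3 and 29.2 CPM and 318 and 334 CPM against 463 and 471 CPM. Kdr stood at 1315 and 1082 CPM against 511 and 701 CPM in members and 2609 and 2354 CPM against 2021 and 1938 CPM in comparison cells, and Fabp4, a fatty acid binding protein, at 5408 and 6139.9 CPM against 7177 and 7152 CPM and 5621 and 6863 CPM against 8058 and 7859.8 CPM. Within the set, cells with Gpihbp1 were rarely cells with Vwf. After thinning to 2000 UMIs, a Vwf UMI was found in 0 of 17 and 1 of 13 members with a Gpihbp1 UMI in the deligated libraries and in 0 of 3 and 0 of 2 in the homeostatic ones. Among members without a Gpihbp1 UMI it was found in 40 of 61 and 14 of 33, and in 21 of 48 and 21 of 42. The share of members with a Gpihbp1 UMI was 21.8% and 28.3% against 5.88% and 4.55% after thinning and 47.4% and 46.8% against 29.4% and 13.6% before it, and at most 1.76% of thinned leukocytes had one. Egr1, described below, was found in 47.4% and 56.5% against 23.5% and 13.6% of thinned members and in 9.29% and 12.2% against 13.3% and 11.7% of thinned leukocytes.

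The threshold of 2 UMIs was met exactly by 78 members. Of the 220 members 138 had Selp without Ackr1, 5 had Ackr1 without Selp and 77 had both. In members with exactly 2 UMIs Vwf stood at 171 and 191 CPM against 296 and 393 CPM, and in those with 3 or more at 657 and 482 CPM against 502 and 741 CPM. Cells just outside the rule, with 1 UMI of Selp or Ackr1 and all else the same, had 80.6 and 58.4 CPM against 93.0 and 52.3 CPM. Rgcc ran the other way, from 1395 and 1547 CPM against 1163 and 1208 CPM in the cells just outside to 616 and 695 CPM against 264 and 252 CPM at the threshold and 347 and 291 CPM against 103 and 143 CPM above it. Gpihbp1 in the cells just outside was 403 and 656 CPM against 315 and 443 CPM, where the groups overlapped. At the threshold it was 445 and 574 CPM against 84.5 and 70.6 CPM and above it 182 and 186 CPM against 86.3 and 42.8 CPM. Deligated members thus stood above homeostatic members both at and above the threshold.

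**Figure D2:**
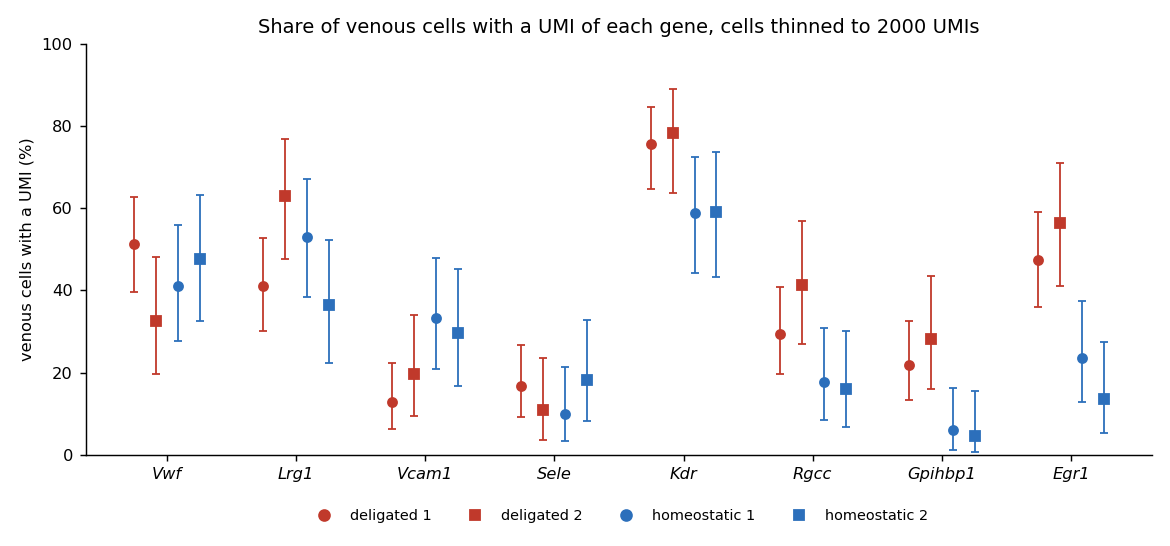
Percent of venous cells with at least 1 UMI of each of 8 genes after thinning every cell to 2000 UMIs, per library, with exact 95% binomial intervals that cover counting error only. Gpihbp1 was found in 21.8% and 28.3% of deligated and 5.88% and 4.55% of homeostatic members, and Egr1 in 47.4% and 56.5% and in 23.5% and 13.6%.

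RNA of other cell types was present in members at levels that differed between libraries and, for some types, between the groups. Summed over 12 markers of salivary secretory cells it was 21.6 and 48.6 CPM against 4003 and 1069 CPM, and in comparison cells 45.7 and 201 CPM against 3936 and 4299 CPM, with Lpo at 0 in members. The 8 macrophage markers summed to 2.54 and 42.1 CPM against 193 and 384 CPM, with Mrc1 at 0, and the 7 fibroblast markers outside the rule to 26.7 and 94.0 CPM against 14.3 and 12.5 CPM. Mural cell markers (8 genes) summed to 380.0 CPM in deligated library 1 and to 45.4, 28.6 and 12.5 CPM in the other libraries. Erythroid markers reached 5946 CPM in homeostatic library 2 and 44.5 to 172 CPM in the rest. The 7 lymphocyte and NK cell markers outside the rule summed to 71.2 and 214 CPM against 154 and 62.6 CPM, with groups that overlapped. The 4 lymphatic markers outside the rule summed to 72.4 and 97.2 CPM against 46.4 and 62.6 CPM, with Lyve1 and Pdpn at 0, and in comparison cells to 88.2 and 108 CPM against 93.8 and 89.1 CPM. At least 2 UMIs of the markers of mural cells, lymphocytes and NK cells, macrophages, fibroblasts or epithelial cells were found in 39 members. Salivary secretory, erythroid and lymphatic markers were not part of this count. They were also not screened in the fits without cells with markers of other types.

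Members made up 4.19% and 1.54% of endothelial cells in the deligated libraries and 1.19% and 1.03% in the homeostatic ones. Both deligated libraries were above both homeostatic ones, but the 2 deligated libraries were further apart than the second was from the homeostatic pair: the exact 95% interval of deligated library 1 ran from 3.33% to 5.20% and that of library 2 from 1.13% to 2.04%. The mean share was 2.86% ± 1.87 (SD, n = 2) against 1.11% ± 0.116 (SD, n = 2), and the exact two-sided permutation test gave p = 0.333, the smallest it can give for 2 against 2 libraries. Without deligated library 1 the difference was 0.429 points, where it was 1.75 points with it. Since a deeper cell passes a UMI threshold more readily, the rule was also applied to cells thinned to 2000 UMIs, where the shares were 1.95% and 0.666% against 0.643% and 0.514%. Of all retained cells the members were 1.73% and 0.56% against 0.435% and 0.365%, and after thinning 0.831% and 0.254% against 0.323% and 0.257%, so that deligated library 2 then had the lowest share (exact permutation p = 1).

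**Figure D3:**
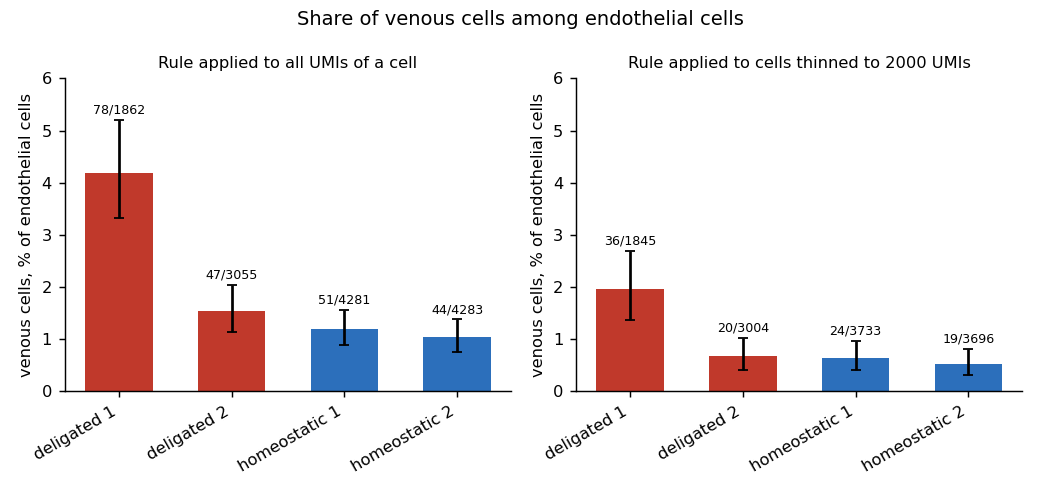
Venous cells as a percent of endothelial cells per library, with exact 95% binomial intervals and the counts above the bars, for all UMIs (left) and for cells thinned to 2000 UMIs (right). Deligated library 1 stands highest in both panels at 4.19% and 1.95%, and the other 3 libraries lie between 1.03% and 1.54% on the left and between 0.514% and 0.666% on the right.

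The main comparison asked how gene expression in the venous cells of deligated glands differed from that of homeostatic glands. UMIs of the members were summed per library, giving 786826 and 308639 against 280063 and 239499 UMIs, and 5055 genes were tested with edgeR. Of these, 564 (11.2%) passed an adjusted p of 0.05, 120 (2.37%) higher and 444 (8.78%) lower in deligated members. Without homeostatic library 1 the count was 319 (48 higher, 271 lower) and without homeostatic library 2 it was 282 (62 higher, 220 lower). The count of higher calls was 222 without deligated library 2, 206 of 4858 genes without scored doublets, 212 of 14002 with no filter on low counts and 44 with DESeq2, which called 225 lower. The lower calls lay mostly in genes with long introns. Among 793 tested genes with over 100 kb of total intron, 318 (40.1%) were called, 312 of them (39.3%) lower, with a median log2 fold change of -0.77. Among the 540 with at most 2 kb, 62 (11.5%) were called, 49 of them (9.07%) higher, with a median of 0.16. In a fit on short-intron genes alone, 31 of 531 (5.84%) passed, 19 (3.58%) higher and 12 (2.26%) lower.

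Genes with over 100 kb of intron held 9.52% and 9.03% of the members' UMIs in the deligated libraries and 14.5% and 16.5% in the homeostatic ones. The file headers name Cell Ranger 6.0.1 for the deligated and 7.0.0 for the homeostatic libraries, while the submitters' processing notes name 6.0.1 for all 4. Later releases count intron reads by default, and version and group cannot be told apart. After a smooth trend of fold change on intron length was taken out, 288 genes (5.7%) passed, 162 (3.2%) higher and 126 (2.49%) lower, so the share of higher calls went from 21.3% to 56.25%. Of the calls, 194 genes passed in both fits. The calls named below that the trend ends are given with their values. Of the called genes of the first comparison named here, those with over 100 kb of intron are Col4a1 (107 kb), Col4a2 (129.9 kb), Vegfc (107 kb), Sgk1 (113 kb), Gm5127 (125 kb), F8, Rora, Pcdh7 and Thsd7a.

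**Figure D4:**
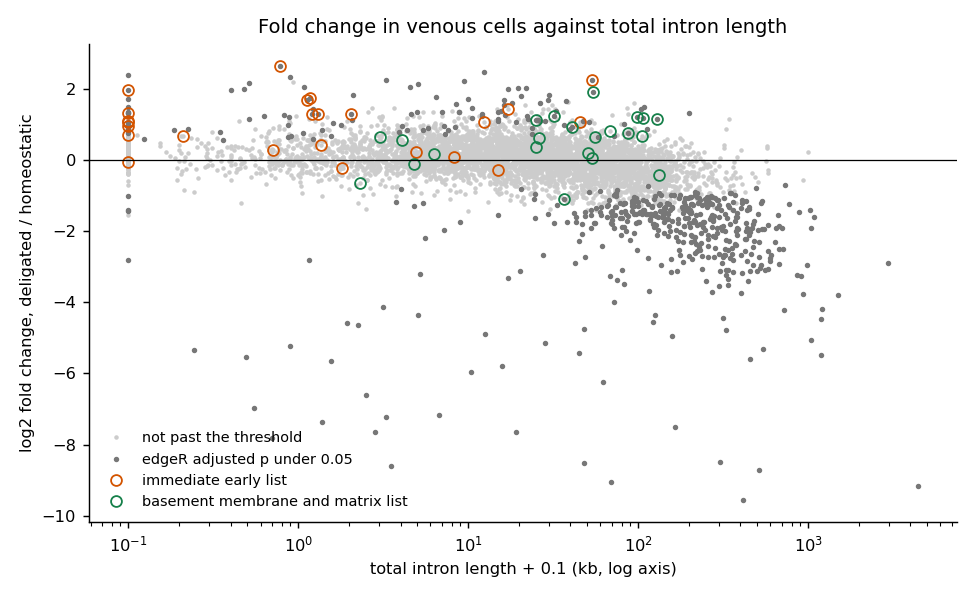
Log2 fold change in venous cells, deligated over homeostatic, against total intron length (kb + 0.1, log axis) for the 5055 tested genes, with genes past the threshold in dark grey and the immediate early and the basement membrane and matrix lists circled. Genes with over 100 kb of intron sit lower, at a median of -0.77, than genes with at most 2 kb, at 0.16, and most circled genes lie above 0.

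Of the immediate early genes, which encode fast-acting transcription factors and feedback inhibitors, 10 rose and none fell. Such genes respond within minutes to growth factors, flow and inflammatory signals, and also to enzymatic dissociation of tissue. These are 10 of 24 tested members of the list, where 2.37% of all tested genes were called higher and 9.07% of those with at most 2 kb of intron. The fit on such short-intron genes alone held 17 of the list. The list's median log2 fold change was 1.06, beside 0.01 over all tested genes. Without homeostatic library 1 the count was 7, without homeostatic library 2 it was 8, and DESeq2 called 6. Among members with a Vwf UMI, a set chosen after seeing the data, it was 11 of 20, with a list median of 1.33. After thinning to 2000 UMIs it was 2 of the 9 genes that could be fitted, with a list median of 0.45. In the thinned fits the rule was applied again, which left 36 and 20 against 24 and 19 members.

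Egr1, a zinc finger transcription factor, had 599 and 897 CPM against 146 and 83.5 CPM. Both deligated libraries stood at over 4 times either homeostatic library (log2 fold change 2.65 ± 0.29, edgeR adjusted p = 2.33e-05). In comparison cells it had 395 and 439 CPM against 156 and 147 CPM, and in leukocytes 68.0 and 102 CPM against 99.2 and 91.8 CPM. The AP-1 subunit Fos had 1202 and 1367 CPM against 411 and 380.0 CPM (log2 fold change 1.68 ± 0.20, edgeR adjusted p = 5.41e-05), its partner Jun 1289 and 1558 CPM against 689 and 422 CPM (log2 fold change 1.33 ± 0.23, edgeR adjusted p = 0.00131). Comparison cells were also higher in both deligated libraries for Fos, at 1357 and 1549 CPM against 570.0 and 549 CPM, as were leukocytes, at 591 and 679 CPM against 324 and 312 CPM. The part of dissociation in these values was not tested. After thinning to 2000 UMIs, with the rule applied again, Egr1 (2.03) and Jun (1.18) kept their calls, while Fos had a log2 fold change of 0.45 (edgeR adjusted p = 0.474).

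Dusp1, a phosphatase that switches off MAP kinases, had 295 and 444 CPM against 71.4 and 79.3 CPM, with no overlap between groups (log2 fold change 2.25 ± 0.29, edgeR adjusted p = 9.32e-05). Zfp36, which speeds the decay of cytokine mRNAs, had 229 and 606 CPM against 85.7 and 117 CPM, with deligated library 2 far above library 1 (log2 fold change 1.97 ± 0.39, edgeR adjusted p = 0.00334). Its log2 fold change was 2.57 without deligated library 1 and 1.26 without deligated library 2. Socs3, an inhibitor of signalling through the interleukin-6 receptor chain, had 100.4 and 175 CPM against 42.8 and 33.4 CPM (log2 fold change 1.73 ± 0.38, edgeR adjusted p = 0.00663). Btg2, a growth inhibitor, had 219.9 and 305 CPM against 82.1 and 129 CPM (log2 fold change 1.28 ± 0.29). The other calls were Fosb (1.30 ± 0.34), Junb (1.30 ± 0.31) and Ier2 (0.95 ± 0.25). Ier2 lost its call with the intron trend removed (edgeR adjusted p = 0.153). Without homeostatic library 1, edgeR adjusted p rose to 0.143 for Btg2, 0.105 for Fosb and 0.155 for Ier2. Without homeostatic library 2 it rose to 0.083, 0.0511 and 0.086 for Fosb, Junb and Ier2, and without deligated library 1 to 0.317 for Fosb. After thinning, Dusp1 had 2.22 (edgeR adjusted p = 0.0746) and Junb 0.39 (0.646). DESeq2 did not call Zfp36 (adjusted p = 0.0799), Junb (0.244), Fosb (0.114) or Ier2 (0.0839). The other 14 tested members of the list did not pass, among them the heat shock genes Hspa1a at 39.4 and 55.1 CPM against 28.6 and 12.5 CPM and Hspa8 at 696 and 729 CPM against 628 and 568 CPM.

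Immediate early genes are classic targets of CREB and serum response factor, which bind the cAMP response element and the CArG box, so their promoters were read for these motifs. RefSeq promoters (GRCm38.p6) matched 8 of the 10 called genes, not Egr1 or Ier2. The 250 bases before the start site held the full cAMP response element TGACGTCA, searched on both strands, in 2 of these 8, Dusp1 and Btg2, and the CArG box in 1, Zfp36. Of 32851 windows of the same length, 1.55% held the first motif and 1.47% the second. A match is a description of the letters and not of binding. The windows with a match are shown 5′ to 3′ with the motif in capitals, 143 bases before the start for Dusp1 (chr17:26508473-26508722, minus strand), 166 for Btg2 (chr1:134079156-134079405, minus strand) and 58 for Zfp36 (chr7:28379229-28379478, minus strand).
Dusp1: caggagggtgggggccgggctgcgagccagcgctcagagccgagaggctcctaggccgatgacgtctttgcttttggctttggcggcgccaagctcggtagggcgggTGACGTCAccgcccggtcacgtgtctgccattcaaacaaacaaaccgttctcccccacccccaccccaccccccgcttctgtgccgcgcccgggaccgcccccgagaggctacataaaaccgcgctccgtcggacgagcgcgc
Btg2: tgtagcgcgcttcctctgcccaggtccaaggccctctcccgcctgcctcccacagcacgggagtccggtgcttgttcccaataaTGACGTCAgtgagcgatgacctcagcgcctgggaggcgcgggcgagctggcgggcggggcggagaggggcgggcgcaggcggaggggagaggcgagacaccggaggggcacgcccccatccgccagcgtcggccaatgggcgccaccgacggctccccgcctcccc
Zfp36: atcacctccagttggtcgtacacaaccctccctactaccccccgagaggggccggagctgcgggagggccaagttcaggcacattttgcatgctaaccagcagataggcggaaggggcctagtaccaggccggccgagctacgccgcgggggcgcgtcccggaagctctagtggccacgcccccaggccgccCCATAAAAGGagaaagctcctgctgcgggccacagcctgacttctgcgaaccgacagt

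Genes of the basement membrane, the sheet of collagen IV, laminin and perlecan under the endothelium, were called mostly higher. Of 22 tested members of the matrix list, 8 rose and 1 fell (2.37% and 8.78% of all tested genes), with a median log2 fold change of 0.64. The count of higher genes was 5 without homeostatic library 1 and 5 among members with a Vwf UMI, and 10 with the intron trend removed. Col4a1 and Col4a2 encode the main chains of collagen IV and lie head to head, on opposite strands, on chromosome 8 (chr8:11198423-11312826 and chr8:11312805-11449287). Col4a1 had 1844 and 1341 CPM against 646 and 743 CPM (log2 fold change 1.19 ± 0.21, edgeR adjusted p = 0.00163), and Col4a2 1139 and 881 CPM against 393 and 522 CPM (log2 fold change 1.14 ± 0.23, edgeR adjusted p = 0.00356). In both, the groups did not overlap.

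Lamb1, a laminin beta chain, had 177 and 107 CPM against 25.0 and 54.3 CPM (log2 fold change 1.92 ± 0.40, edgeR adjusted p = 0.00464), and the perlecan gene Hspg2 519.8 and 515 CPM against 325 and 279.8 CPM (log2 fold change 0.76 ± 0.22, edgeR adjusted p = 0.0364). The collagen-binding Sparc had 2068 and 1792 CPM against 799.8 and 948 CPM (log2 fold change 1.13 ± 0.19, edgeR adjusted p = 0.00103) and its relative Sparcl1 1168 and 1147 CPM against 475 and 489 CPM (log2 fold change 1.25 ± 0.20, edgeR adjusted p = 0.0006). For Sparc and Sparcl1 the 2 libraries of a group lay close together and the groups far apart. Timp3, an inhibitor of metalloproteinases, and Col15a1, a collagen next to the basement membrane, were higher by 0.92 ± 0.19 and 1.21 ± 0.23 on the log2 scale. The elastin gene Eln was the exception, at 191 and 224 CPM against 371 and 497 CPM (log2 fold change -1.09 ± 0.24, edgeR adjusted p = 0.00655).

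Some of these calls rested on single libraries or on the cells taken. Without homeostatic library 1, edgeR adjusted p rose to 0.0991 for Lamb1 (without homeostatic library 2 its log2 fold change was 2.54), 0.0576 for Col4a2 and 0.109 for Hspg2. Hspg2 also lost its call without homeostatic library 2 (0.259) and without deligated library 1 (0.0769), and Eln without homeostatic library 2 (0.0898). In members with a Vwf UMI Col4a1 was higher by 0.85 (edgeR adjusted p = 0.0506), Col4a2 by 0.67 (0.164) and Hspg2 by 0.49 (0.369) on the log2 scale, and Lamb1, Sparcl1, Sparc, Col15a1, Timp3 and Eln kept their calls. After thinning to 2000 UMIs, 2 of the 13 list members that could be fitted were called higher, Sparc (0.94) and Sparcl1 (1.02), and Eln lower (-1.71). Col15a1 then had 0.21 (edgeR adjusted p = 0.89), Col4a1 0.82 (0.148), Col4a2 0.75 (0.244), Timp3 0.64 (0.153) and Hspg2 1.08 (0.129). With at least 4 UMIs of Selp and Ackr1, 8 of 19 were higher and 1 lower. Comparison cells stood higher in both deligated libraries too, for Col4a1 at 2677 and 2038 CPM against 1607 and 1539.6 CPM and for Sparc at 2288 and 2113 CPM against 1302 and 1288 CPM.

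Of 11 tested capillary genes, 4 rose and 1 fell, where 2.37% of all tested genes were called higher and 8.78% lower, and the median of these 11 genes was 0.03. With no filter on low counts the median of all 15 listed genes was 0.89, and with at least 4 UMIs of Selp and Ackr1 that of the 7 fitted was -0.42. Without homeostatic library 1 these counts were 2 and 1. Gpihbp1 (chr15:75596628-75599481), at the levels given above, rose (log2 fold change 1.96 ± 0.29, edgeR adjusted p = 0.00027), as did Rgcc (log2 fold change 1.28 ± 0.24, edgeR adjusted p = 0.00194). Kdr, the main VEGF receptor, had 1315 and 1082 CPM against 511 and 701 CPM (log2 fold change 0.98 ± 0.22, edgeR adjusted p = 0.0083), and Btnl9, a butyrophilin-like gene of capillaries, 268 and 117 CPM against 82.1 and 75.2 CPM (log2 fold change 1.36 ± 0.37, edgeR adjusted p = 0.0271). For each, both deligated libraries stood above both homeostatic ones. Meox2, a homeobox factor of capillary endothelium, fell, at 8.90 and 3.24 CPM against 64.3 and 79.3 CPM (log2 fold change -3.25 ± 0.47, edgeR adjusted p = 0.000253). Fabp4, a fatty acid binding protein, was at 5408 and 6139.9 CPM against 7177 and 7152 CPM and Cd36, the fatty acid translocase, at 61.0 and 143 CPM against 171 and 142 CPM, and neither passed.

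With at least 4 UMIs of Selp and Ackr1, Kdr was higher by 1.08 (edgeR adjusted p = 0.00552) and Rgcc by 1.17 (0.0334) on the log2 scale. In members with at least 3 UMIs Kdr stood at 1171 and 974 CPM against 459 and 606 CPM, and in those with exactly 2 at 1683 and 1309.7 CPM against 612 and 837 CPM, so that both deligated libraries were above both homeostatic ones on either side. In members with a Vwf UMI, Kdr was higher by 0.85 on the log2 scale (edgeR adjusted p = 0.0496) and Rgcc by 0.86 (edgeR adjusted p = 0.111), while Gpihbp1 and Btnl9 had too few UMIs to be fitted. Without deligated library 1 the log2 fold change of Meox2 was -4.29, and among members with a Vwf UMI it fell by 3.06 (edgeR adjusted p = 0.000201). Btnl9 also lost its call without deligated library 1 (log2 fold change 0.55, edgeR adjusted p = 0.494), without either homeostatic library (0.132 and 0.0631) and with the intron trend removed (0.0744), and Kdr without homeostatic library 1 (0.109) and after thinning (0.81, 0.0868).

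Of 19 tested genes of the venous list, 1 rose and 1 fell, a share near the 11.2% called over all tested genes, with a median log2 fold change of -0.17. After thinning the median of the 11 fitted was 0.15, and with at least 4 UMIs of Selp and Ackr1 that of the 17 fitted was -0.14. Aplnr, the receptor of the peptide apelin, rose, at 366 and 434 CPM against 132 and 104 CPM (log2 fold change 1.72 ± 0.25, edgeR adjusted p = 0.000281). Il1r1, the interleukin-1 receptor, fell, at 80.1 and 74.5 CPM against 289 and 221 CPM (log2 fold change -1.72 ± 0.26, edgeR adjusted p = 0.000354). Both have groups far apart, and both kept the call in every alternative that fitted them, among members with a Vwf UMI with log2 fold changes of 1.48 and -1.60. Il1r1 holds 85.8 kb of intron, and with the trend removed it was -1.33 (edgeR adjusted p = 0.00591). Vwf did not pass (log2 fold change -0.17 ± 0.24, edgeR adjusted p = 0.739), and its sign turned after thinning, with the intron trend removed and in some fits that left a library out. Nr2f2 (-0.46 ± 0.23), Lrg1 (-0.02 ± 0.22) and Slco2a1 (-0.01 ± 0.21) did not pass either.

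**Figure D5:**
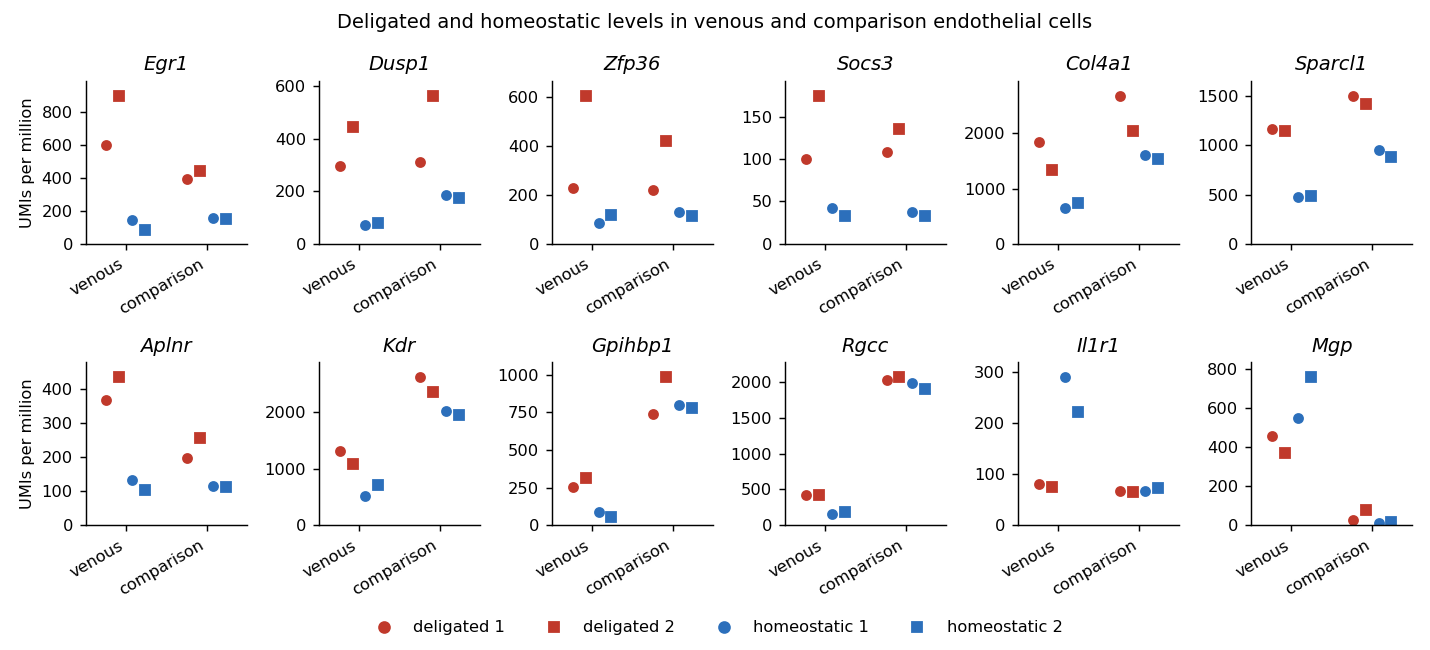
Level of 12 genes (CPM, linear axis from 0) in venous and comparison cells, 1 point per library, red for deligated and blue for homeostatic, circles for replicate 1 and squares for replicate 2. In venous cells Egr1, Col4a1, Aplnr and Gpihbp1 are higher in both deligated libraries, while Il1r1 is lower, from 289 and 221 to 80.1 and 74.5 CPM, and alike in the comparison cells of all 4 libraries.

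Of 16 tested genes by which venules recruit leukocytes 1 passed, where 11.2% of all tested genes did: Mcam, a cell adhesion molecule of the immunoglobulin family, at 100.4 and 107 CPM against 46.4 and 33.4 CPM (log2 fold change 1.33 ± 0.34, edgeR adjusted p = 0.0173). It did not pass without homeostatic library 1 or 2 (edgeR adjusted p = 0.0663 and 0.155), nor among members with a Vwf UMI (0.69, 0.363). The E-selectin gene Sele had a log2 fold change of -0.13 ± 0.30 and the integrin ligand Icam1, at 121 and 84.2 CPM against 114 and 109 CPM, of -0.07 ± 0.29. Of 6 tested chemokine and cytokine genes 1 passed, also near that share: Il15, an interleukin that sustains lymphocytes, at 19.1 and 32.4 CPM against 50.0 and 79.3 CPM (log2 fold change -1.45 ± 0.41, edgeR adjusted p = 0.0311). It lost the call with the trend removed (0.118), without deligated library 1 (0.31) and without either homeostatic library (0.0624 and 0.405). Of 20 inflammatory signalling genes Socs3 rose and Il1r1 fell, against the same 11.2%, with a median of -0.05.

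In antigen presentation 0 of 18 tested genes rose and 3 fell, where 2.37% of all tested genes were called higher and 8.78% lower. They were Cd74, the invariant chain of MHC class II, at 86.4 and 382 CPM against 668 and 998 CPM (log2 fold change -1.96 ± 0.44, edgeR adjusted p = 0.00788), the class II gene H2-Eb1, at 36.9 and 110.2 CPM against 179 and 242 CPM (log2 fold change -1.73 ± 0.38, edgeR adjusted p = 0.00682), and the class I activator Nlrc5 (-1.99 ± 0.42). Cd74 was much higher in leukocytes, at 1442 and 956 CPM against 10047 and 9172 CPM, and macrophage marker RNA in members moved the same way, as given above. Without the 6 scored doublets Cd74 had -1.30 and H2-Eb1 -1.09 (edgeR adjusted p = 0.000223 and 0.0154), and without cells with markers of other types -1.80 and -1.32 (2.12e-06 and 0.00589). They had -3.02 and -2.57 with at least 4 UMIs of Selp and Ackr1. The class II genes H2-Aa, at 41.9 and 220.3 CPM against 182 and 263 CPM, and H2-Ab1, at 63.5 and 311 CPM against 218 and 267 CPM, did not pass, with deligated library 2 within or above the range of the homeostatic libraries. H2-Eb1 had -2.42 without deligated library 2 and lost its call without deligated library 1 (edgeR adjusted p = 0.0619), and Nlrc5 without deligated library 1 (0.11) or homeostatic library 1 (0.172). Cd74 rested unevenly on the deligated libraries, with -1.13 without library 1 and -3.19 without library 2, and DESeq2 did not call it (adjusted p = 0.413).

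Of 23 tested interferon-stimulated genes 1 rose and 1 fell, where 11.2% of all tested genes were called, 2.37% higher and 8.78% lower. The rule kept out cells high in Ifit genes, so this list describes cells below that limit. Rsad2, an antiviral enzyme, had 155 and 198 CPM against 35.7 and 37.6 CPM (log2 fold change 2.21 ± 0.32, edgeR adjusted p = 0.000273), and Ifi27l2a 8.90 and 6.48 CPM against 71.4 and 45.9 CPM (log2 fold change -2.82 ± 0.47, edgeR adjusted p = 0.000953). Ifi27l2a lost its call without homeostatic library 1 (edgeR adjusted p = 0.179). Of 6 clock genes, read against the same shares, Nr1d2 rose, at 41.9 and 42.1 CPM against 10.7 and 12.5 CPM, and Arntl and Rora fell, Rora from 421 and 430.1 to 15.3 and 38.9 CPM. Rora, a nuclear receptor, has 721 kb of intron, and removing the trend took its log2 fold change from -4.21 to -1.95 (edgeR adjusted p = 0.00309). Without deligated library 1 it was -3.45. Arntl lost its call with the trend removed (0.173) and without homeostatic library 1 (0.158), and Nr1d2 without any 1 of the 4 libraries (0.161 to 0.469).

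Glucocorticoid-induced genes gave 4 higher and 1 lower of 11 tested, beside 2.37% and 8.78% of all tested genes, with a median of 0.72. Of the 4, Zfp36 and Dusp1 are shared with the immediate early list. Sgk1, a kinase of salt transport, had 316 and 266 CPM against 143 and 179.5 CPM (log2 fold change 0.86 ± 0.25, edgeR adjusted p = 0.0386), and Ddit4, an inhibitor of mTOR, 49.6 and 84.2 CPM against 3.57 and 25.1 CPM (log2 fold change 2.16 ± 0.58, edgeR adjusted p = 0.0237), from 1 and 6 UMIs in the homeostatic libraries. The metallothionein Mt1 fell, at 8.90 and 9.72 CPM against 50.0 and 83.5 CPM (log2 fold change -2.81 ± 0.46, edgeR adjusted p = 0.000804), and stood at 8.19 and 18.6 CPM against 75.1 and 72.3 CPM in comparison cells. Sgk1 lost its call without deligated library 1 (edgeR adjusted p = 0.139) or either homeostatic library (0.281 and 0.0831), Ddit4 without deligated library 2 (0.0626) or homeostatic library 1 (0.264), and Mt1 without homeostatic library 2 (0.179). Sgk1 also lost it in members with at least 4 UMIs of Selp and Ackr1 (0.335) and in members with a Vwf UMI (0.1), as did Ddit4 in the latter (0.0922). Without homeostatic library 2 the log2 fold change of Ddit4 was 4.01.

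Of 22 growth signalling genes 3 rose (Kdr, Aplnr and Pdgfb) and 1 fell (Vegfc), beside 2.37% and 8.78% of all tested genes. Pdgfb, the factor by which endothelium recruits mural cells, had 286 and 178 CPM against 99.98 and 121 CPM (log2 fold change 1.11 ± 0.30, edgeR adjusted p = 0.024), and Vegfc, a lymphatic growth factor, 80.1 and 126 CPM against 314 and 196 CPM (log2 fold change -1.40 ± 0.29, edgeR adjusted p = 0.00494). Both lost their calls with the trend removed (edgeR adjusted p = 0.0757 and 0.111) and without homeostatic library 1 (0.197 and 0.138), and Pdgfb also without deligated library 1 (0.222). Of 13 haemostasis genes 1 passed, near the 11.2% over all tested genes. F8, the gene of coagulation factor VIII, which von Willebrand factor carries in blood, rose, at 117 and 104 CPM against 25.0 and 66.8 CPM (log2 fold change 1.31 ± 0.38, edgeR adjusted p = 0.0363). It holds 200 kb of intron, and its log2 fold change was 2.37 with the trend removed, 2.13 without homeostatic library 2, 0.75 without homeostatic library 1 (edgeR adjusted p = 0.372) and 1.20 without deligated library 1 (0.0619).

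Of 19 junction and permeability genes 2 passed and of 21 flow-response genes 1, where 11.2% of all tested genes did, 2.37% higher and 8.78% lower. With the intron trend removed the flow-response list held 2 higher and 0 lower, where 3.2% and 2.49% of all tested genes were. Of the junction genes Rhob, a small GTPase, rose, at 337 and 366 CPM against 125 and 146 CPM (log2 fold change 1.36 ± 0.24, edgeR adjusted p = 0.0016), and Gja1, the connexin 43 gene, at 75.0 and 113 CPM against 32.1 and 37.6 CPM (log2 fold change 1.35 ± 0.38, edgeR adjusted p = 0.0298). Gja1 did not pass with the trend removed (edgeR adjusted p = 0.0806), without deligated library 2 (0.0564) or without either homeostatic library (0.197 and 0.083). After thinning Rhob had 1.27 (edgeR adjusted p = 0.201). The flow-response gene was Piezo1, a mechanically gated channel, which fell, at 96.6 and 94.0 CPM against 179 and 171 CPM (log2 fold change -0.88 ± 0.25, edgeR adjusted p = 0.035). It lost the call without any 1 of the 4 libraries (0.0727 to 0.206) and with the trend removed (0.156), and in members with at least 4 UMIs of Selp and Ackr1 (0.352) or with a Vwf UMI (0.0662). Gja1 did not pass in members with a Vwf UMI (0.1) or without cells with markers of other types (0.0547). The flow-induced factor Klf2 had 948 and 573 CPM against 875 and 931 CPM and Klf4 458 and 334 CPM against 296 and 338 CPM, and neither passed. No gene passed among 5 arterial, 5 cell cycle and 12 metabolic genes tested.

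Outside the lists, the genes with short introns and the largest fold changes were taken by a rule. Those that rose included Tril, an accessory protein of Toll-like receptors, at 75.0 and 94.0 CPM against 25.0 and 4.18 CPM (log2 fold change 2.38 ± 0.50, edgeR adjusted p = 0.00505), the homeobox gene Hlx, at 95.3 and 117 CPM against 14.3 and 29.2 CPM (log2 fold change 2.26 ± 0.41, edgeR adjusted p = 0.00163), and Marcksl1, at 68.6 and 42.1 CPM against 7.14 and 16.7 CPM (log2 fold change 2.32 ± 0.53, edgeR adjusted p = 0.00945). Ctgf and Cyr61, matricellular proteins that are classic targets of the YAP pathway, had 55.9 and 159 CPM against 17.9 and 29.2 CPM (log2 fold change 2.00 ± 0.56, edgeR adjusted p = 0.0285) and 47.0 and 97.2 CPM against 21.4 and 8.35 CPM (log2 fold change 2.05 ± 0.55, edgeR adjusted p = 0.0237). In both, deligated library 2 was well above library 1, and without it edgeR adjusted p was 0.0845 and 0.126. Without homeostatic library 1 or 2 the log2 fold change of Tril was 4.22 or 1.69, from 7 and 1 UMIs there, and among members with a Vwf UMI that of Hlx was 1.63 (edgeR adjusted p = 0.0597). Marcksl1 had 2.99 without homeostatic library 2, Ctgf 2.74 without deligated library 1, and Cyr61 and Mtfr1l 2.93 and 3.47 without homeostatic library 1. Cenpt and Mtfr1l rose from 1 to 5 UMIs in each homeostatic library. Calls were also lost for Marcksl1 without deligated library 1 (0.47) or homeostatic library 1 (0.147), for Ctgf without homeostatic library 1 (0.197) and with the trend removed (0.0529), for Cyr61 without homeostatic library 2 (0.123), for Mtfr1l without deligated library 1 (0.393) or homeostatic library 2 (0.224), and for Cenpt without either homeostatic library (0.141 and 0.356) and with the trend removed (0.0555).

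Of the 9 genes that fell by this rule, Gm11290, an unnamed gene model, had 0 UMIs in the deligated members and 32 in the homeostatic ones. That is at least 22.5-fold lower when 3 UMIs over the deligated group are taken as the floor, and comparison cells had 0.234 and 0 CPM against 31.1 and 36.7 CPM. Nov, a matricellular protein of the same family as Ctgf and Cyr61, fell, at 11.4 and 6.48 CPM against 39.3 and 54.3 CPM (log2 fold change -2.18 ± 0.48, edgeR adjusted p = 0.00676). Klk8, a kallikrein protease, had 62.3 and 68.0 CPM against 150.0 and 163 CPM (log2 fold change -1.28 ± 0.27, edgeR adjusted p = 0.00572; DESeq2 adjusted p = 0.0702), the Notch ligand Dll1 30.5 and 22.7 CPM against 67.8 and 62.6 CPM (log2 fold change -1.22 ± 0.37, edgeR adjusted p = 0.0442), and the splicing factor Srsf7 52.1 and 84.2 CPM against 132 and 159 CPM (log2 fold change -1.19 ± 0.30, edgeR adjusted p = 0.0176). The others were Ccdc85b, Fam181b, Slfn2 and Gm10076, with log2 fold changes of -1.43 ± 0.33, -1.40 ± 0.42, -0.82 ± 0.25 and -1.003 ± 0.29. Nov, Dll1 and Fam181b lost their calls without any 1 of the 4 libraries, with edgeR adjusted p from 0.0816 (Dll1) to 0.552 (Fam181b). Without deligated library 1 or homeostatic library 2 Ccdc85b (0.117 and 0.0514), Gm10076 (0.313 and 0.257), Slfn2 (0.322 and 0.0749) and Srsf7 (0.196 and 0.105) lost theirs, and without homeostatic library 1 Slfn2 (0.35) and Srsf7 (0.0621). Slfn2 had -2.32 after thinning (edgeR adjusted p = 0.0258) and did not pass with DESeq2 size factors (0.0516) or with no filter on low counts (0.081).

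A second comparison asked whether deligation went with a different change in venous cells than in the other blood endothelial cells of the same libraries. The difference of the 2 effects (venous minus comparison cells, log2) was tested with the library as a block. Of 12332 genes 60 (0.487%) passed, 33 (0.268%) with a larger and 27 (0.219%) with a smaller effect in venous cells. The count was 14 with at least 4 UMIs of Selp and Ackr1 and 27 among members with a Vwf UMI. After thinning to 2000 UMIs the rule was applied again to members and comparison cells, which left 36 and 20 against 24 and 19 members. The count was then 0 by edgeR, with 298 genes at an unadjusted p under 0.05. It was 23 without deligated library 1, 37 without homeostatic library 1 and 26 without homeostatic library 2.

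Il1r1 fell in venous cells while comparison cells had 66.7 and 65.8 CPM against 66.2 and 72.4 CPM, and the difference was -1.55 ± 0.25, edgeR adjusted p = 1.13e-06. Lrg1 and Mgp, a matrix protein that inhibits calcification, did not pass the test in members, and stood higher in deligated than in homeostatic comparison cells. Lrg1 in comparison cells had 37.0 and 25.2 CPM against 9.21 and 10.9 CPM (difference -1.53 ± 0.20, edgeR adjusted p = 2.61e-11), and Mgp 26.0 and 76.7 CPM against 11.6 and 17.8 CPM beside 460.1 and 369 CPM against 549.9 and 759.9 CPM in members (difference -2.12 ± 0.19, edgeR adjusted p = 1.79e-25). Mgp in leukocytes was 132 and 418 CPM against 63.4 and 58.9 CPM, highest in deligated library 2 as well, and the part of free RNA was not tested. In comparison cells the 8 mural markers summed to 302 and 912 CPM against 167 and 71.7 CPM and the 7 fibroblast markers to 83.2 and 170 CPM against 41.5 and 12.9 CPM, both highest in deligated library 2. With cells holding markers of other types left out the differences were -1.89 for Lrg1, -2.11 for Mgp, -1.40 for Bgn and -1.21 for Clu (edgeR adjusted p = 8.21e-15, 6.1e-18, 0.00512 and 0.0179). The difference of Mgp was -3.10 without deligated library 1 and -1.28 without deligated library 2. The matrix proteoglycan Bgn differed in the same direction (-1.47 ± 0.28, edgeR adjusted p = 0.000141), as did the secreted chaperone Clu (-1.20). Without deligated library 1 the differences of Lrg1 and Clu did not pass (edgeR adjusted p = 0.0942 and 0.634), nor did that of Clu without homeostatic library 1 (0.725) or that of Bgn without deligated library 2 (0.256) or homeostatic library 2 (0.43). With at least 4 UMIs of Selp and Ackr1 the differences of Il1r1, Lrg1 and Mgp passed, and those of Bgn (0.504) and Clu (0.0536) did not. The difference of Bgn was -2.14 without homeostatic library 1.

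Of 27 immediate early genes in this test 4 had a higher difference (log2 fold change in venous minus comparison cells) and 0 a lower one, where 0.268% and 0.219% of all genes did. They were Nr4a1, a nuclear receptor that did not pass the test in members (edgeR adjusted p = 0.105; difference 1.503 ± 0.38, edgeR adjusted p = 0.0231), Egr1 (1.30 ± 0.22, edgeR adjusted p = 5.3e-06), Dusp1 (1.17 ± 0.25, edgeR adjusted p = 0.00216) and Jun (0.82 ± 0.19, edgeR adjusted p = 0.00857). Ctgf and Cyr61 differed by 2.80 ± 0.46, edgeR adjusted p = 1.13e-06 and 2.17 ± 0.49, edgeR adjusted p = 0.00483. In comparison cells Ctgf had 11.7 and 12.7 CPM against 19.9 and 18.3 CPM and Cyr61 50.4 and 59.0 CPM against 56.4 and 50.1 CPM. The difference of Nr4a1 did not pass without either deligated library or homeostatic library 1 (0.245 to 0.975) nor with the trend removed (0.0869). The difference of Egr1 did not pass without deligated library 2 (1.05, edgeR adjusted p = 0.0627) or homeostatic library 2 (0.90, 0.231), and those of Ctgf and Cyr61 not without deligated library 2 (0.0603 and 0.358). That of Dusp1 did not pass without deligated library 1 or either homeostatic library (0.139 to 0.378), that of Cyr61 without homeostatic library 2 (0.376), and that of Jun without either deligated library or homeostatic library 2 (0.0626 to 0.868) nor with the trend removed (0.93). Without deligated library 1 the difference of Ctgf was 3.49, and without homeostatic library 1 that of Cyr61 was 2.90. Among members with a Vwf UMI the differences of Egr1 and Ctgf were 1.49 and 3.47 (edgeR adjusted p = 0.000598 and 8.55e-06), and those of Cyr61 (0.0861), Dusp1 (0.177), Jun (0.134) and Nr4a1 (0.283) did not pass. With at least 4 UMIs of Selp and Ackr1 none of these differences passed: Egr1 had 1.20 (edgeR adjusted p = 0.0536), Ctgf 1.59 (0.75), Cyr61 2.46 (0.0866), Dusp1 1.40 (0.0846), Jun 0.81 (0.287) and Nr4a1 2.39 (0.173). With no filter on low counts that of Nr4a1 did not pass (0.0674).

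Of 14 capillary genes in this test 4 had a higher difference and 0 a lower one, where 0.268% and 0.219% of all genes did: Gpihbp1 by 2.00 ± 0.26, edgeR adjusted p = 1.35e-11, Rgcc by 1.34 ± 0.22, edgeR adjusted p = 2.17e-06, Btnl9 by 1.08 ± 0.26, edgeR adjusted p = 0.0137 and Kdr by 0.78 ± 0.19, edgeR adjusted p = 0.0163. Kdr did not pass with DESeq2 size factors (0.0537), nor did Btnl9 and Kdr with no filter on low counts (0.0534 and 0.0674). With at least 4 UMIs of Selp and Ackr1 none of these 4 differences passed (0.63, 1.30, 1.85 and 0.94, edgeR adjusted p from 0.119 to 1). Among members with a Vwf UMI none of these differences passed (1.19, 0.91, 0.51 and 0.65, edgeR adjusted p from 0.677 to 1). The difference of Rgcc did not pass without homeostatic library 1 (0.0667), that of Btnl9 not without deligated library 1 or either homeostatic library (0.303 to 1), and that of Kdr not without either deligated library or homeostatic library 1 (0.149 to 0.748). Aplnr (0.89 ± 0.23, edgeR adjusted p = 0.0236), Mcam (1.34 ± 0.34, edgeR adjusted p = 0.0219) and Col4a1 (0.73 ± 0.19, edgeR adjusted p = 0.0343) passed with all libraries and in none of the fits that left 1 library out. They did not pass either with at least 4 UMIs of Selp and Ackr1 (0.0866, 0.94 and 0.337), among members with a Vwf UMI (0.92, 1 and 1) or with no filter on low counts (0.111, 0.0674 and 0.132). DESeq2 size factors ended the calls of Aplnr (0.066) and Col4a1 (0.0979), and leaving out cells with markers of other types those of Aplnr (0.152) and Mcam (0.144). Rora (-1.78 ± 0.30, edgeR adjusted p = 4.28e-06), Pcdh7 (-1.73 ± 0.34, edgeR adjusted p = 0.000231) and Thsd7a (-1.24 ± 0.27, edgeR adjusted p = 0.00268), all genes with over 400 kb of intron, had a lower difference, and none of the 3 passed without deligated library 1 (edgeR adjusted p = 1, 0.968 and 1). With the intron trend removed the differences of Aplnr (0.26, edgeR adjusted p = 0.915), Btnl9 (0.88, 0.0977), Mcam (1.03, 0.213) and Kdr (0.68, 0.0679) did not pass. Rora (0.0866), Pcdh7 (0.484) and Thsd7a (0.916) did not pass with at least 4 UMIs of Selp and Ackr1, nor did Thsd7a among members with a Vwf UMI (0.108). Pcdh7 did not pass without homeostatic library 2 either (0.213), and the difference of Rora was -2.42 without deligated library 2.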

How the data were processed

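Single cells of 4 libraries were measured on the 10x Genomics platform. The deposited matrices hold raw UMI counts per gene and barcode, made with Cell Ranger 6.0.1 (deligated) and 7.0.0 (homeostatic) per the file headers, and the submitters' processing notes name the mouse build mm10. Annotation release and strand setting are not given in the sources used here. Of 31053 gene identifiers 31011 (99.9%) matched GENCODE M21 on GRCm38, which gave coordinates and intron lengths.

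Cells with at least 300 genes and at most 10% mitochondrial UMIs were retained (36685). Doublets were scored per library against simulated doublets, at 0.8% per 1000 cells, and kept in the main analysis. Counts were summed per library and cell set and tested with edgeR 4.0.16 (quasi-likelihood, TMM, filterByExpr) in R 4.3.3, with Benjamini-Hochberg adjustment over all genes tested and a threshold of 0.05. Errors are standard errors of the log2 fold change with 2 libraries per group. The intron trend is a loess curve (span 0.5) of fold change on log intron length, entered as an offset. Alternatives were DESeq2 1.42.0 as test and as size factors, no filter on low counts, stricter cell and member thresholds, thinning, leaving out doublets, cells with markers of other types or each library, and a fit on genes with at most 2 kb of intron. A set of members with a Vwf UMI was added after seeing the data. On simulated data the venous test recovered 45% of changes of 1 log2 unit and 97% of changes of 2 log2 units over 4898 genes with 6 false calls, and the test of the difference 19% and 90% over 12182 genes with 5. The changed genes were drawn from those at higher levels, and all genes had the same dispersion (0.0244). No library, free RNA or intron effect was simulated, so these rates do not carry over to genes with few UMIs or to such effects. Intervals are exact Clopper-Pearson at 95%.

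Members and the 18 gene lists were chosen with earlier results of these data known. Genes were named by a fixed rule: the 10 largest changes in each direction among called genes with at most 10 kb of intron, at least 20 CPM, groups that did not overlap and a level at least 0.5 times that of all other cells; up to 4 genes of each list; the 6 largest differences in each direction; the 15 highest ratios to comparison cells; and the list members behind a count. Fewer than 10 genes met the conditions for lower calls. Called genes that overlap a gene on the other strand (Tril, Cenpt, Zfp36, Dusp1, Mcam, F8, Pdgfb, Sparcl1, Col15a1, Col4a1, Col4a2, Timp3, Eln, Jun, Junb, Piezo1, Nlrc5, H2-Eb1, Rora, Arntl, Dll1, Ccdc85b, Fam181b and Slfn2 among them) are uncertain where counting could mix strands.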

Additional observations from a re-analysis of the deposited data

Results flagged for a closer look

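The effect of deligation differed between venous and comparison cells, by a test of the difference itself, for the following genes, given with the difference on the log2 scale (venous minus comparison, edgeR adjusted p from 5.01e-54 for Hba-a1 to 0.0343 for Col4a1). It was larger in venous cells for the capillary genes Gpihbp1 (2.00), Rgcc (1.34), Btnl9 (1.08) and Kdr (0.78). The same held for the immediate early and YAP target genes Egr1 (1.30), Dusp1 (1.17), Jun (0.82), Nr4a1 (1.503), Ctgf (2.80) and Cyr61 (2.17). It was also larger for Aplnr (0.89), Mcam (1.34), Col4a1 (0.73), Rsad2 (1.38), Zfp715 (2.77), Ephb1 (2.57), Fblim1 (2.43) and Myh11 (3.88). It was lower (more negative) in venous cells for Il1r1 (-1.55), Lrg1 (-1.53), Mgp (-2.12), Bgn (-1.47), Clu (-1.20), Dll1 (-1.83), Cp (-3.86), Cpe (-3.85), Cygb (-4.02), Rora (-1.78), Pcdh7 (-1.73) and Thsd7a (-1.24).

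Some of these rest on few cells. A single cell held 97.6% of the UMIs of Myh11, a smooth muscle myosin, among the members of deligated library 1. Over the groups Myh11 had 83 UMIs against 1, a ratio of 39.4 with a counting interval from 6.87 to 1573, and its call was lost without deligated library 1 (edgeR adjusted p = 1) or homeostatic library 1 (0.899). Zfp715 had 42 against 3 UMIs, a ratio of 6.64 with an interval from 2.12 to 33.5. The haemoglobin genes Hba-a1 (-4.91), Hba-a2 (-4.50) (near-identical copies) and Hbb-bs (-4.11) were lower by the same test, and 1 cell held 98.7% of the Hbb-bs UMIs of homeostatic library 2. Without scored doublets their differences were -2.02, -1.20 and -1.22 (edgeR adjusted p = 0.0601, 0.838 and 0.0883), and that of Nr4a1 was 1.41 (0.0634). Cygb, Cp and Cpe stood at 8.90 and 6.48 CPM against 28.6 and 16.7 CPM, 6.35 and 3.24 CPM against 46.4 and 37.6 CPM and 20.3 and 0 CPM against 25.0 and 71.0 CPM in members, and at 12.2 and 23.2 CPM against 2.78 and 2.09 CPM, 6.32 and 8.04 CPM against 3.65 and 3.18 CPM and 11.3 and 17.4 CPM against 3.89 and 1.94 CPM in comparison cells. Leaving out 1 library ended the call of Hba-a1, Hba-a2 and Hbb-bs (homeostatic library 2, edgeR adjusted p = 0.832, 1 and 1), Cygb (homeostatic library 1, 0.143), Cp (deligated or homeostatic library 1, 0.0712 and 0.0691), Cpe (homeostatic library 2, 0.355), Zfp715 (deligated library 1 or either homeostatic library, 0.156 to 0.895), Nr4a1 (either deligated library or homeostatic library 1, 0.245 to 0.975) and Rsad2 (deligated library 2 or either homeostatic library, 0.194 to 0.519). Dll1, Ephb1 and Fblim1 passed in no fit that left a library out (0.0643 for Dll1 without homeostatic library 2 to 0.519 for Ephb1 without homeostatic library 1). With the intron trend removed Zfp715 (0.0507), Nr4a1 (0.0869) and Rsad2 (0.0869) did not pass. Without cells with markers of other types the calls of Aplnr (0.152), Mcam (0.144), Zfp715 (0.0833), Ephb1 (0.286), Hba-a1 (0.452), Hba-a2 (0.992), Hbb-bs (0.723), Cygb (0.338) and Cp (0.196) were lost. At least 4 UMIs of Selp and Ackr1 in each member ended those of Dll1 (0.484), Zfp715 (1), Ephb1 (0.624), Fblim1 (0.337), Cygb (0.951), Cp (0.0837), Nr4a1 (0.173) and Rsad2 (1), and a Vwf UMI in each member those of Dll1 (0.54), Zfp715 (0.738), Ephb1 (0.895), Fblim1 (0.0801), Nr4a1 (0.283) and Rsad2 (1). With no filter on low counts those of Aplnr (0.111), Btnl9 (0.0534), Mcam (0.0674), Kdr (0.0674), Col4a1 (0.132), Ephb1 (0.0534) and Nr4a1 (0.0674) were lost, and with DESeq2 size factors those of Aplnr (0.066), Kdr (0.0537) and Col4a1 (0.0979) (all edgeR adjusted p). The other differences lost in these cells are given with their genes above.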

How the results depend on the processing

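The count of genes called between deligated and homeostatic venous cells (564) was 248 of 2358 tested with at least 4 UMIs of Selp and Ackr1, 82 of 705 after thinning, 269 with DESeq2, 288 with the intron trend removed, 31 of 531 among genes with at most 2 kb of intron and 334 of 3231 among members with a Vwf UMI. The thinned fits applied the rule again and held 36 and 20 against 24 and 19 members, so depth and membership changed together. Leaving out 1 library gave 282 to 619 calls, with 319 without homeostatic library 1 and 282 without homeostatic library 2. With the replicate number as a block the count was 630 and no named call was lost, but the numbers do not pair the libraries (correlation of deviations -0.075). The count of genes whose effect differed from that in comparison cells (60) was 14 with at least 4 UMIs of Selp and Ackr1, 0 after thinning (298 at an unadjusted edgeR p under 0.05), 27 among members with a Vwf UMI and 23 to 42 without 1 library. Over the named genes and alternatives, 728 of 904 fold changes kept sign and side of the threshold, 171 kept the sign and lost the call and 5 turned sign. Of 462 differences these numbers were 285, 172 and 5. The DESeq2 test ended 30 calls among 65 named genes (Marcksl1, Ddit4, Cenpt, Mtfr1l, Cyr61, Zfp36, Nov, Ccdc85b, Fam181b, Klk8, Dll1, Srsf7, Gm10076, Slfn2, Btnl9, Mcam, Il15, F8, Pdgfb, Gja1, Piezo1, Nlrc5, Nr1d2, Arntl, Sgk1, Cd74, Fosb, Hspg2, Ier2 and Junb; adjusted p from 0.0702 for Klk8 to 0.49 for Fam181b). At least 4 UMIs of Selp and Ackr1 in each member ended those of Ccdc85b (0.135), Gm10076 (0.116), Slfn2 (0.13), F8 (0.15), Pdgfb (0.105), Piezo1 (0.352), Arntl (0.124), Sgk1 (0.335), Fosb (0.0742) and Hspg2 (0.191), a Vwf UMI in each member those of Hlx (0.0597), Ddit4 (0.0922), Ccdc85b (0.369), Gm10076 (0.392), Slfn2 (0.121), Rgcc (0.111), Mcam (0.363), Pdgfb (0.108), Col4a1 (0.0506), Gja1 (0.1), Piezo1 (0.0662), Sgk1 (0.1), Col4a2 (0.164) and Hspg2 (0.369), genes with at most 2 kb of intron alone those of Marcksl1 (0.0585), Ddit4 (0.0797), Cyr61 (0.0742), Ctgf (0.0759), Fam181b (0.109), Fosb (0.0797) and Ier2 (0.0694), no filter on low counts those of Fam181b (0.0787), Dll1 (0.0757), Slfn2 (0.081) and Piezo1 (0.0743), and DESeq2 size factors that of Slfn2 (0.0516) (edgeR adjusted p). Of the 5 turned fold changes, that of Vwf among members with a Vwf UMI (0.0526) cannot show its change, since the set was chosen on Vwf itself. The sign turned for Vwf, which passed in none of these fits, after thinning (0.59), with the trend removed (0.48) and in fits without 1 library (from -0.41 to 0.0926). It also turned for the differences of Btnl9 after thinning (-0.19), Hba-a1 after thinning (8.80), and Myh11 without scored doublets (-0.91), without cells with markers of other types (-1.82) and leaving out 1 library (-1.96 without deligated library 1 to 10.62 without homeostatic library 2); the cause was not tested. Alternatives with fewer cells or UMIs tested fewer genes, and genes below the filter could not be fitted there. In simulated data with the depth and number of these libraries, the venous test recovered 45% of changes of 1 log2 unit. That holds for genes at higher levels with the same dispersion for all, and depth and number of libraries were not varied.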
